A study of Vitis vinifera with 156 samples.

Results

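Dormant buds of grapevine (Vitis vinifera, cultivar Cabernet Sauvignon) that spent their last weeks in a daily cycle around 7 °C were compared with buds kept at constant 4 °C throughout. The study held cuttings in growth chambers at different temperatures and measured messenger RNA in the buds by sequencing the 3′ ends of transcripts. In phase I, which ended at day 26, cuttings stood at a constant temperature. In phase II, up to day 69, some of them were moved to a chamber that cycled each day between 2 and 12 °C around a mean of 7 °C, while the others stayed at their constant temperature. The libraries compared were chosen by their labels: every library with a phase II of 7 ± 5 °C, and every constant 4 °C library of the same days, which makes 48 libraries, all among the 70 of the study's Second library set; its First set holds 86.

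The fluctuating regime held 3 arms, named by their phase I temperature of 2, 7 or 11 °C, with 12 libraries each and 36 in all. The constant group was at 4 °C in both phases and held 12 libraries. Each arm had 3 libraries, labelled as replicates, at days 34, 41, 55 and 69, so that every day gave 9 fluctuating libraries and 3 at 4 °C. The tissue was labelled as bud and the cultivar was the same throughout. Whether a replicate was a separate plant, a separate cutting or a pool of buds is not given in the sources used here, so p-values measure the spread between these libraries, which may be partly technical.

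The groups differed in more than the daily cycle. The mean temperature of phase II was 7 against 4 °C, the fluctuating buds changed chamber at day 26 and the 4 °C buds did not, and their phase I temperature was 2, 7 or 11 °C against 4 °C. None of these can be told apart in the pooled comparison. Within the Second set, the fluctuating libraries lay in plate columns 2 to 7 and the 4 °C libraries in columns 9 and 10, so plate position cannot be told apart from the group either.

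Grapevine buds enter endodormancy in autumn, a state in which they do not open even in warmth, and leave it after a long enough time in the cold, called chilling. Over the same period the buds acclimate: their tissue comes to survive deeper frost, and soluble sugars, dehydrins and other protective molecules build up. Low temperature drives both processes, and whether a day that swings above and below a mean acts like constant cold is a standing question in models of chilling and hardiness.

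The lines of the table carry no gene identifiers, so a gene is called here by its line number, line 1 being the first below the header. No function, position or sequence is given for any gene for that reason.

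Total counts ran from 36026 to 7138863 in fluctuating libraries (median 2630740) and from 97411 to 4378634 in 4 °C libraries (median 2102688). There were 3 fluctuating and 2 constant 4 °C libraries under 1000000 counts. A count of 3 stood for 0.420 to 83.3 CPM (counts scaled to a library total of 1000000) in fluctuating libraries and for 0.685 to 30.8 CPM in 4 °C libraries, which limits what can be seen in low genes. The largest axis of variation between libraries of the same arm and day held 50.7% of that variation in the 43 libraries of at least 1000000 counts. On that axis replicates 1 and 2 of 4 °C at day 55 scored 1.56 and 1.54, away from the other 8 libraries of 4 °C, which scored -0.83 ± 0.39 (SD). Counts of called genes for the regime, the arms and day 55, and the regime by day test, are given with and without these 2 libraries.

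Over all days, buds of the fluctuating regime differed from buds at 4 °C in 1791 of 11218 genes tested (16%; edgeR quasi-likelihood test with day as a factor, Benjamini-Hochberg adjusted p under 0.05). Of these, 911 genes (8.12%) were higher in the fluctuating regime and 880 (7.84%) were lower. The difference reached 2-fold in 310 higher and 206 lower genes, and 4-fold in 27 higher and 6 lower genes. The median absolute log2 difference of the called genes was 0.79, against 0.31 over all genes tested, and the median signed log2 difference over all genes was 0.01.

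Both directions occurred at every level of expression. Among genes under 10 CPM, 641 of 4780 were called (13.4%), 346 of them higher. Among genes of 10 to 100 CPM, 941 of 5347 were called (17.6%), 483 of them higher, and among genes over 100 CPM, 209 of 1091 (19.2%), 82 of them higher. The median absolute log2 difference of the called genes was 0.97 in the lowest class, and 0.70 in each of the other classes. The 100 most abundant genes held 5 called higher and 16 called lower.

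By share of all counts, the genes called lower weighed more than the genes called higher. The 880 lower genes took 13.5 ± 3.76% of a library's counts in the fluctuating regime (SD, n = 36) and 22.0 ± 6.31% at 4 °C (SD, n = 12). The 911 higher genes took 5.43 ± 1.48% in the fluctuating regime and 2.97 ± 0.57% at 4 °C. These shares describe genes chosen on the same libraries and are not a separate test.

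The number of called genes depended on which libraries entered. Without replicates 1 and 2 of 4 °C at day 55 it was 3529 (2024 higher, 1505 lower), and leaving out a single 4 °C library gave 1292 to 2365. Without day 34, 41, 55 or 69 it was 623, 883, 3442 and 643, and without replicate 3 of every group it was 150. Replicates 1 and 2 of each 4 °C day then remained, with the shallow day 41 libraries and the 2 of day 55 among them. The cause of that low count was not tested.

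**Figure D1:**
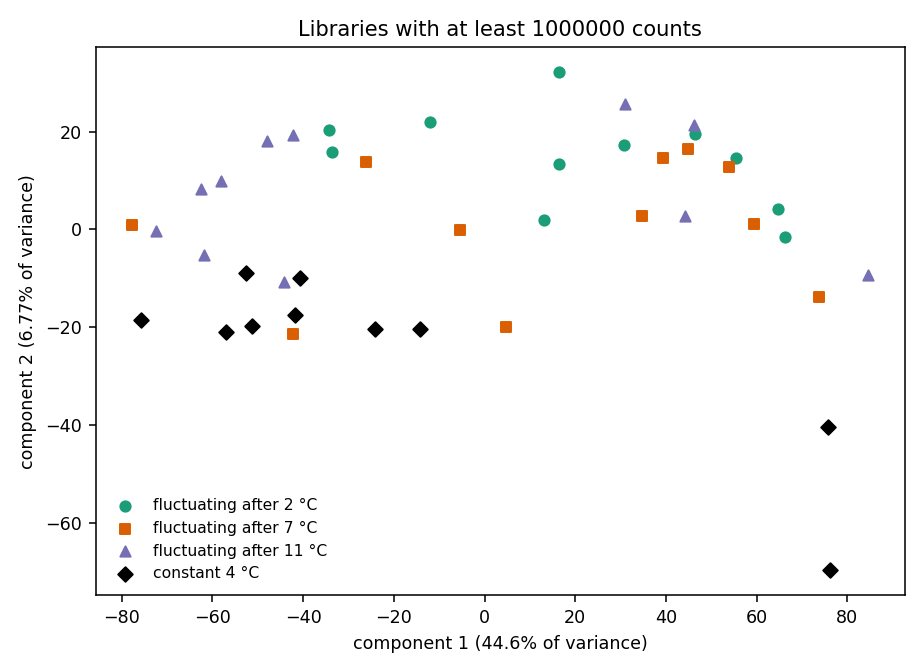
Scores of the 43 libraries with at least 1000000 counts on the first 2 principal components of log2 CPM, each axis labelled with its share of the variance. Each point is a library, coloured and shaped by fluctuating arm (after 2, 7 or 11 °C) or constant 4 °C: 8 of the 10 libraries of 4 °C lie below 0 on the first component, replicates 1 and 2 of day 55 lie above it, and all 10 lie below 0 on the second.

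Regime accounted for 5.12% of the spread of scores on the first principal component, which held 44.6% of the variance. On it 8 of the 10 libraries of 4 °C scored -75.7 to -14.1, and replicates 1 and 2 of day 55 scored 76.1 and 75.7. The arms after 2, 7 and 11 °C averaged 20.9 ± 36.2, 14.5 ± 47.8 and -16.7 ± 56.1 on it (SD, n = 11 each). These means fell with rising phase I temperature, with wide SDs, and were not tested among arms. The second component held 6.77% of the variance, and 48.4% of the spread of its scores lay between the regimes. Fluctuating libraries averaged 7.46 on it (-21.5 to 32.1, n = 33) and 4 °C libraries -24.6 (-69.7 to -8.83, n = 10). The arms after 2, 7 and 11 °C scored 14.5 ± 9.77, 0.646 ± 13.7 and 7.24 ± 12.8 (SD, n = 11 each), so no order by phase I temperature appeared on that component. The ranges of the regimes overlapped, as the plot of the components shows.

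Genes whose level differed the same way throughout were a minority. In 503 of the called genes (4.48% of the genes tested) the mean CPM of every arm-day lay on the same side of that day's 4 °C mean. There were 12 arm-days in all. Of these genes, 350 (3.12%) averaged at least 10 CPM over the 48 libraries, 251 higher (2.24%) and 99 lower (0.883%). Over all genes tested, 634 (5.65%) lay on the same side in all 12. From the 350 genes, those with the largest log2 differences were taken: genes 40455 and 6281 among the higher, and genes 14529 and 14528 among the lower. As 36 of the 48 libraries were fluctuating, a gene low at 4 °C could pass the 10 CPM minimum by its fluctuating level. Genes 40455 and 6281 did so, with means of 2.47 and 4.51 CPM at 4 °C and 17.1 and 52.4 CPM in the fluctuating regime. The split of 251 and 99 is therefore no result about direction.

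**Figure D2:**
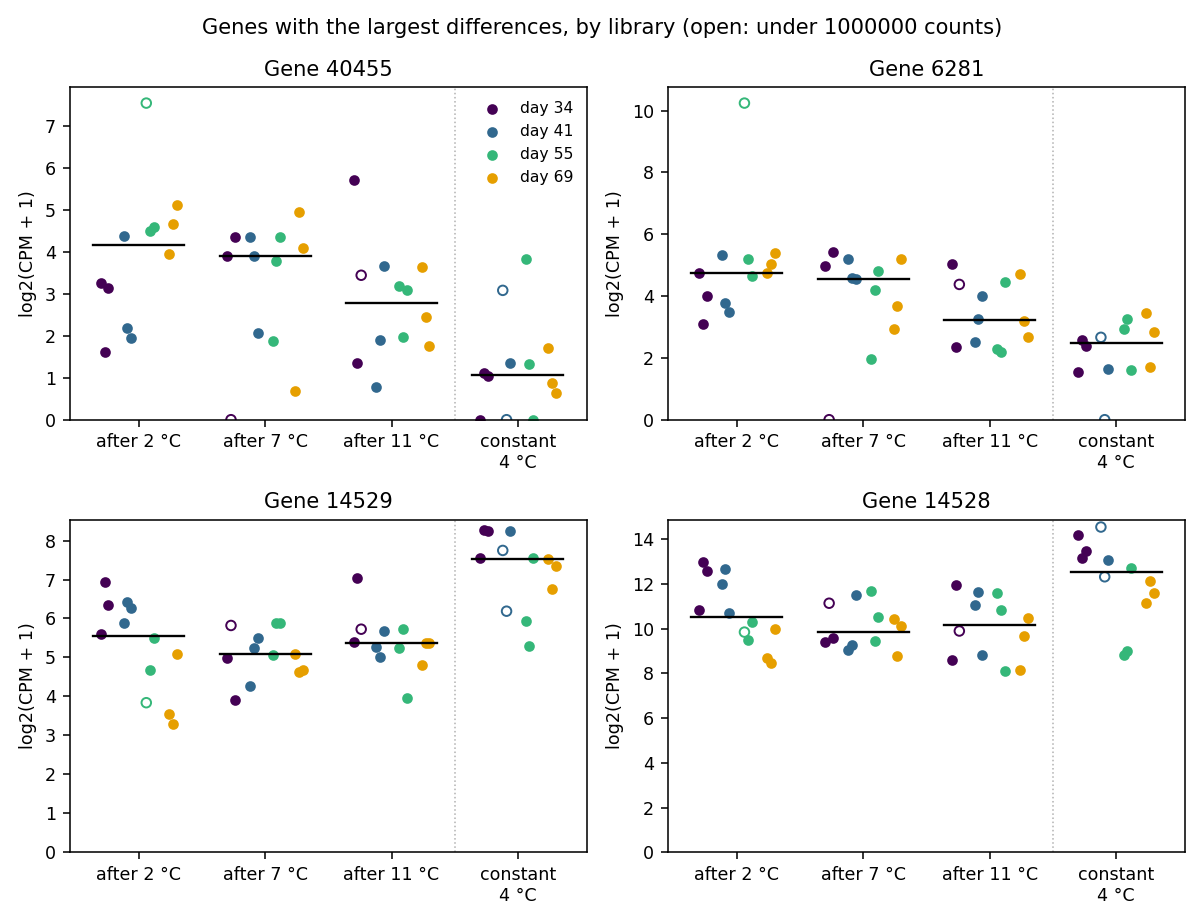
Level of genes 40455, 6281, 14529 and 14528 as log2(CPM + 1) in each of the 48 libraries, for the fluctuating arms after 2, 7 and 11 °C and then constant 4 °C. Points are libraries coloured by day, open points are libraries under 1000000 counts and lines are medians; genes 40455 and 6281 have higher medians in each fluctuating arm than at 4 °C, and genes 14529 and 14528 have lower ones.

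Gene 14529 had the most even difference. It had 8.88 CPM in the lowest, 38.7 in the median and 131 in the highest fluctuating library, against 37.9, 185 and 310 CPM at 4 °C. Among the libraries of at least 1000000 counts, 17 of 33 fluctuating libraries lay below the lowest 4 °C library, which was replicate 2 of day 55. The gene averaged 44.2 ± 27.6 CPM in the fluctuating regime (SD, n = 36) and 177 ± 95.0 CPM at 4 °C (SD, n = 12).

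In the fit, gene 14529 fell by 2.07 on the log2 scale (SE 0.21; edgeR adjusted p = 1.99e-09). The arms after 2, 7 and 11 °C lay -1.95, -2.29 and -2.0 from 4 °C, each past the threshold (edgeR adjusted p = 1.34e-05, 6.03e-06 and 1.91e-05). The difference also passed at every day, with log2 values of -2.04, -1.79, -1.72 and -2.62 at days 34, 41, 55 and 69 (edgeR adjusted p = 0.013, 0.0339, 0.0282 and 0.00077). Mean levels over those days were 83.4, 73.2, 27.4 and 17.6 CPM in the arm after 2 °C, 33.4, 33.3, 49.6 and 27.2 CPM in the arm after 7 °C, 74.7, 39.7, 34.5 and 35.9 CPM in the arm after 11 °C, and 267, 195, 94.6 and 150.9 CPM at 4 °C. The mean of each arm was thus under that of 4 °C at every day, which the choice of the gene required.

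Gene 14528, on the line before it, was far more abundant. Fluctuating libraries had 279, 1185 and 8034 CPM as lowest, median and highest, against 455, 5902 and 23845 CPM at 4 °C. The 4 °C libraries with the lowest levels were replicates 1 and 2 of day 55, at 455 and 505 CPM, while the third library of that day had 6701 CPM. The gene fell by 2.01 on the log2 scale (SE 0.32; edgeR adjusted p = 1.58e-05), and lay -1.69, -2.29 and -2.17 from 4 °C in the arms after 2, 7 and 11 °C (edgeR adjusted p = 0.00553, 0.00088 and 0.00123). By day it passed at day 34 (log2 difference -2.34, edgeR adjusted p = 0.0446), and its values at days 41, 55 and 69 were -2.08, -1.25 and -2.21 without passing (edgeR adjusted p = 0.127, 0.347 and 0.0962).

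Gene 40455 was close to the limit of detection at 4 °C. Of the 12 libraries there, 9 had at most 3 counts, and the CPM values ran from 0 over a median of 1.11 to 13.2. Fluctuating libraries had 0, 10.7 and 186 CPM as lowest, median and highest, and the highest value was 14 counts in a library of only 75153. In libraries of at least 1000000 counts it averaged 12.7 ± 11.4 CPM in the fluctuating regime (SD, n = 33) and 2.22 ± 3.94 CPM at 4 °C (SD, n = 10), and 14 of the 33 lay above the highest 4 °C library.

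Gene 40455 rose by 2.73 on the log2 scale (SE 0.66; edgeR adjusted p = 0.00377). With the axis score as a covariate it rose by 2.26 (edgeR adjusted p = 2.68e-05). The arms after 2 and 7 °C lay 3.08 and 2.81 above 4 °C and passed (edgeR adjusted p = 0.00311 and 0.011). The arm after 11 °C lay 2.19 above and did not (edgeR adjusted p = 0.0682), though without the 5 shallow libraries it lay 2.41 above and passed (edgeR adjusted p = 0.0494). The call was lost without replicate 3 of every group (2.30, edgeR adjusted p = 0.208), without day 34 (2.25, 0.0655) and without day 69 (2.44, 0.0555).

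Gene 6281 had 0, 20.4 and 1211 CPM as lowest, median and highest in fluctuating libraries, against 0, 4.62 and 10 CPM at 4 °C. The value of 1211 CPM came from the same shallow library, where the next highest of that day was 35.8 CPM. In libraries of at least 1000000 counts the gene averaged 19.8 ± 12.5 CPM in the fluctuating regime (SD, n = 33) and 4.88 ± 2.90 CPM at 4 °C (SD, n = 10), and 23 of the 33 lay above every one of the 10. It rose by 2.57 on the log2 scale with all libraries (SE 0.62; edgeR adjusted p = 0.00327) and by 1.99 without the 5 shallow ones (edgeR adjusted p = 0.00302). With the axis score as a covariate in those 43 libraries it rose by 1.26 (edgeR adjusted p = 0.000234). Its median was 25.7, 22.6 and 8.31 CPM in the arms after 2, 7 and 11 °C. Its distance from 4 °C was 3.40, 2.38 and 1.49 in the arms after 2, 7 and 11 °C, of which the last did not pass (edgeR adjusted p = 0.000296, 0.0134 and 0.169). Without the 5 shallow libraries the distances were 2.29, 2.23 and 1.28 (edgeR adjusted p = 0.00132, 0.00304 and 0.112). The call was lost without replicate 3 of every group (2.53, edgeR adjusted p = 0.136).

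None of the 4 genes separated the groups fully among the libraries of at least 1000000 counts. Such separation was found in 0.0802% of the genes tested with all fluctuating libraries above, and in 0.00891% with all below.

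Taken one by one, the arms differed from 4 °C in unequal numbers of genes. The arm that came from 2 °C differed in 2210 genes (19.7%; 1038 higher, 1172 lower), the arm that came from 7 °C in 1148 (10.2%; 602 higher, 546 lower) and the arm that came from 11 °C in 662 (5.9%; 380 higher, 282 lower). The median absolute log2 difference over all genes tested was 0.41, 0.35 and 0.26 in the same order. All 3 arms were set against the same 12 libraries of 4 °C, so their lists are not independent. Leaving out each replicate number in turn gave 239 to 1283, 14 to 1422 and 37 to 387 genes. Without replicates 1 and 2 of 4 °C at day 55 the arms differed from 4 °C in 3976, 3023 and 1132 genes (edgeR).

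**Figure D3:**
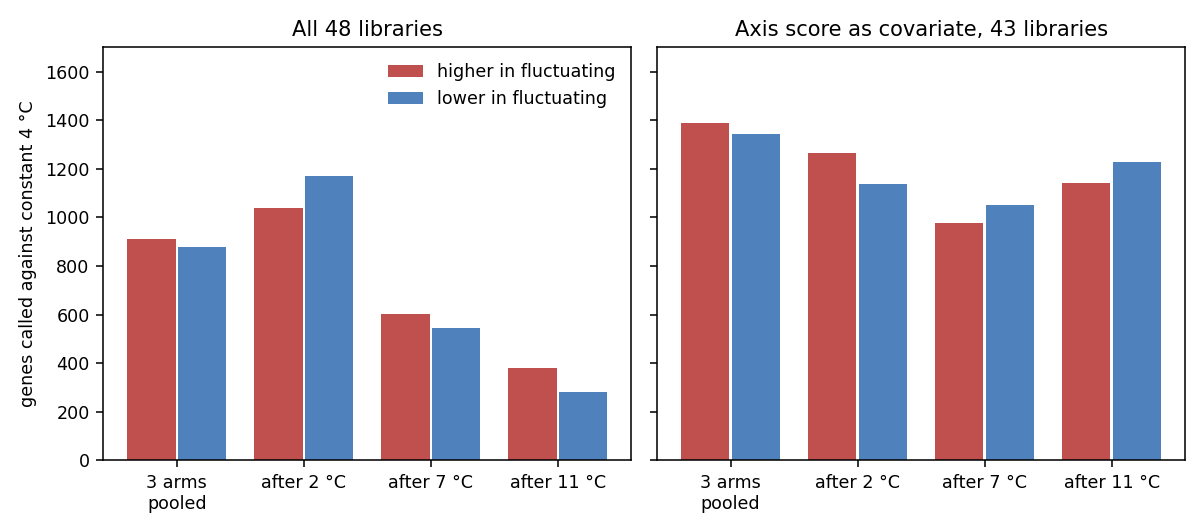
Number of genes higher (red) or lower (blue) than at constant 4 °C for the 3 fluctuating arms pooled and for each arm, with all 48 libraries (left) and with the score on the largest axis between like libraries as a covariate in the 43 deeper libraries (right). The decline from the arm after 2 °C to the arm after 11 °C on the left is not present on the right.

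For the 911 genes called higher in the pooled comparison, the median log2 difference from 4 °C was 0.90 in the arm after 2 °C, 0.83 in the arm after 7 °C and 0.70 in the arm after 11 °C. For the 880 lower genes it was -0.85, -0.80 and -0.62. Of the higher genes, 684, 520 and 327 were called in the single arms, and of the lower genes 660, 490 and 247. These genes were chosen from the same libraries, so the values describe how the arms contributed to the pooled call.

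The mean score of the arms on the axis between like libraries differed by less than its SD within them, and was not tested among arms. It was 0.38 ± 0.72 in the arm that came from 2 °C, 0.27 ± 0.96 in that from 7 °C and -0.33 ± 1.13 in that from 11 °C (SD, n = 11 each), against -0.36 ± 1.06 at 4 °C (SD, n = 10). Across the 11218 genes tested, the axis loading and the pooled log2 difference correlated with r = 0.54, a description of genes that share the same libraries. The sign of the axis was set so that this r is positive, so only its size is informative. In the 43 libraries of at least 1000000 counts the arms differed from 4 °C in 2215, 1388 and 939 genes without the score and in 2405, 2025 and 2370 genes with it as a covariate. With it the median absolute log2 difference over all genes was 0.30, 0.28 and 0.27. The pooled comparison in those libraries gave 1901 genes without the score and 2729 with it (1387 higher, 1342 lower), and 1476 of the 1791 genes were called again, all in the same direction. Because the covariate comes from the same counts it takes up residual spread, and a larger count of calls is to be read with that. The part of the axis in the order of the arms was not tested.

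The arms also differed from each other, in fewer genes. The test across the 3 arms called 0.998% of the 11218 genes (edgeR quasi-likelihood F test, adjusted p under 0.05). Those genes divide into the groups of 22, 22 and 68 given below, and 32 of them were among the 1791. The pooled comparison called 16% of all genes tested. Whether the overlap differed from that share was not tested. In 96 of the genes that differed among arms the arm after 7 °C lay between the other arms. The highest level was in the arm after 11 °C and the lowest in the arm after 2 °C in 58 genes, and the reverse held in 38. The counts of 96, 58 and 38 describe genes chosen for differing among arms in the same libraries. The matching shares over all genes tested are not given. Whether levels followed the order of phase I temperature was therefore not tested by these counts. Of the genes that differed among arms, constant 4 °C lay above all arms in 22, below all arms in 22 and within their range in 68.

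Between pairs of arms, the arm after 2 °C differed from the arm after 11 °C in 337 genes (3%; 120 higher and 217 lower after 2 °C) and from the arm after 7 °C in 7 (0.0624%). The arm after 11 °C differed from the arm after 7 °C in 0 genes (0%) by edgeR, with 1150 at an unadjusted p under 0.05 and a lowest adjusted p of 0.363. Among pairs, the arms that had come from the coldest and the warmest chamber thus differed in the most genes by this test. The count across the 3 arms was 0 without replicate 2 of every group (edgeR, with 520 at an unadjusted p under 0.05), 2 without replicate 3 and 212 without replicate 1.

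By single day, where 9 libraries of the fluctuating regime stood against 3 at 4 °C, far fewer genes passed. They numbered 200 at day 34 (1.62% of 12333; 89 of them higher), 61 at day 41 (0.495%; 56 of them lower), 210 at day 55 (1.7%; 37 higher, 173 lower) and 71 at day 69 (0.576%; 21 higher, 50 lower). At day 55 the count was 0 without replicates 1 and 2 of 4 °C (edgeR, with 1004 at an unadjusted p under 0.05; the day then has 1 library of 4 °C, which is taken to vary like the other groups). Leaving out each replicate number in turn gave 0 to 66, 0 to 51, 0 to 649 and 0 to 5 genes at the 4 days.

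The share of higher among called genes by day differed between tools. It was 44.5, 8.2, 17.6 and 29.6% in edgeR at days 34, 41, 55 and 69, and 61.3, 8.05, 45.3 and 42.9% in DESeq2, which has its own test, filter and size factors. In edgeR with RLE scaling it was 41.1, 5, 26.8 and 36.8%. With RLE scaling the median log2 difference over the same 11218 genes moved to -0.11 at day 41, against 0.10 with TMM, and to 0.22 at day 55, against 0.07 with TMM. No direction of the single days taken as a whole is given for that reason.

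For the genes of the pooled call, the median log2 difference of the 911 higher genes was 1.00, 0.97, 0.62 and 0.86 at days 34, 41, 55 and 69. That of the 880 lower genes was -0.90, -0.64, -0.50 and -0.79. The smallest medians were thus at day 55, the day of the 2 libraries at 4 °C that stood apart.

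Whether the difference between the regimes changed with time was tested directly. The regime by day test called 2 of 12333 genes (0.0162%; edgeR F test with 3 degrees of freedom), with 1555 at an unadjusted p under 0.05, and DESeq2 called 188. A trend of the difference over days 34 to 69 was called in 0 of 11943 genes (0%; edgeR), with 688 at an unadjusted p under 0.05, and DESeq2 called 1.

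The 2 genes of the regime by day test, named after their values were seen, were genes 18197 and 21343 (edgeR adjusted p = 0.0411 each). Gene 18197 averaged 22.1 CPM in fluctuating libraries at day 55, against 116, 49.9 and 14.6 CPM in the 3 libraries of 4 °C. At days 34, 41 and 69 its means were 42.5, 19.8 and 23.2 CPM in the fluctuating regime and 17.7, 22.1 and 15.4 CPM at 4 °C. Gene 21343 averaged 34.7 CPM in fluctuating libraries at day 55, against 170, 65.8 and 17.6 CPM at 4 °C, and its means at the other days were 55.3, 30.8 and 40.6 CPM in the fluctuating regime and 23.6, 26.4 and 22.2 CPM at 4 °C. In both genes the high 4 °C values were those of replicates 1 and 2. Without these 2 libraries the test called 0 genes (edgeR; 512 at an unadjusted p under 0.05).

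Libraries of constant 2, 7 and 11 °C, none of which enter the comparison with 4 °C, gave a view of how the same genes stood in warmer and cooler chambers. They belong to the First library set, and were compared within it at days 34 to 69 with 12 libraries a group. Between constant 7 and constant 2 °C, 2241 of 10748 genes passed (20.9%; 1067 higher at 7 °C; edgeR), and between constant 11 and constant 7 °C, 476 of 11156 did (4.27%; 279 higher at 11 °C; edgeR). Both comparisons use the 7 °C libraries.

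Genes that were higher in the fluctuating regime were more often higher at the warmer constant temperature. Of those tested in both fits, 559 of 865 (64.6%) were higher at 7 than at 2 °C, and 761 of 893 (85.2%) were higher at 11 than at 7 °C. Of the genes lower in the fluctuating regime, 310 of 844 were higher at 7 than at 2 °C (36.7%), and 14.4% of 824 at 11 than at 7 °C. Over all genes tested the shares were 50.6 and 50.3%. The median log2 differences were 0.23 and 0.39 for the higher genes, and -0.23 and -0.45 for the lower ones, at 7 over 2 °C and at 11 over 7 °C.

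**Figure D4:**
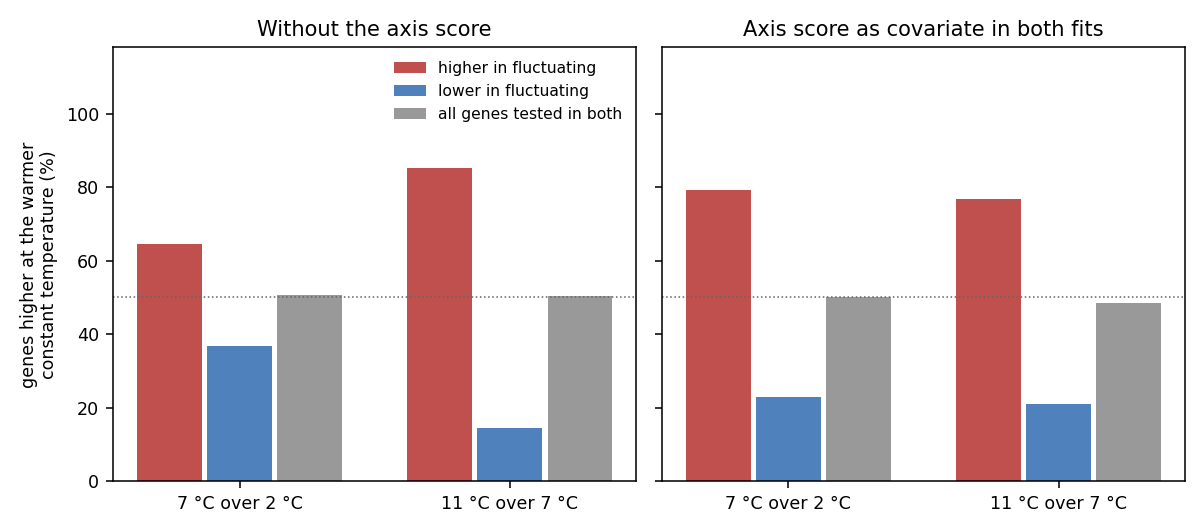
Percentage of genes whose fitted level was higher at the warmer constant temperature (7 over 2 °C and 11 over 7 °C), for genes called higher (red) or lower (blue) in the fluctuating regime than at 4 °C and for all genes tested in both fits (grey), without (left) and with (right) the axis score as a covariate. The red and blue genes on the right are those called with the score, another set than on the left. The dotted line is at an even split; red bars lie above it and blue bars below it in all 4 pairs.

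Of the pooled genes tested in both, 416 (24.3%) were also called between 7 and 2 °C, which is 19.1% of that list. The share of 24.3% was near the 20.9% called over all genes tested there. Of the 416, 345 had the same direction. Between 11 and 7 °C the shared genes were 207 (12.1% of the pooled list and 45.1% of the other). The share of 12.1% stood against 4.27% called over all genes tested there. The same direction held in 204 of the 207. The axis between like libraries moved with these comparisons too: across genes its loading correlated with r = -0.48 with the log2 difference of 7 over 2 °C (n = 10423) and with r = 0.47 with that of 11 over 7 °C (n = 10685). With the score as a covariate in both fits, the genes were those called against 4 °C with the score, in libraries of at least 1000000 counts. They are another set than the one above, so the shares differ by more than the covariate. Of them, 1045 of 1319 higher genes (79.2%) and 305 of 1325 lower genes (23%) were higher at 7 than at 2 °C. For 11 over 7 °C they were 1039 of 1353 (76.8%) and 277 of 1311 (21.1%), with 50.2 and 48.5% over all genes. Its part in these shares was otherwise not tested.

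The 4 named genes could be followed in the same libraries. Gene 14529 had a median of 243 CPM (highest 480) at constant 2 °C, 43.1 CPM (highest 111.5) at 7 °C and 8.54 CPM (highest 30.8) at 11 °C, with 12 libraries each. It fell by 2.69 at 7 against 2 °C and by 2.24 at 11 against 7 °C on the log2 scale (edgeR adjusted p = 4.42e-07 and 0.00237). Gene 14528 averaged 5398 ± 4044 CPM at 2 °C, 3151 ± 4379 CPM at 7 °C and 753 ± 782 CPM at 11 °C, and fell by 1.65 and by 1.75 (edgeR adjusted p = 0.0177 and 0.0106). Both genes were thus lower at 7 than at 2 °C and at 11 than at 7 °C. At 4 °C gene 14528 averaged 7836 ± 7165 CPM (SD, n = 12), above its mean at 2 °C. Gene 14529 averaged 177 CPM there, below its 254 CPM at 2 °C. The libraries of 2 and 4 °C are of different sets, which cannot be told apart from the temperature. At constant 22 °C, sampled up to day 55 and of the Second library set, gene 14529 averaged 25.2 ± 35.4 CPM, against 11.4 ± 9.16 CPM at 11 °C, and gene 14528 averaged 3813 ± 4224 CPM (SD, n = 9 at 22 °C and 12 at 11 °C). Both means were above those of 11 °C, a difference that was not tested and that cannot be told apart from the library set.

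The genes that were high in the fluctuating regime were less clear there. Gene 40455 averaged 9.73 ± 8.35, 10.9 ± 7.30 and 28.1 ± 25.7 CPM at constant 2, 7 and 11 °C (SD, n = 12 each), and its log2 differences of 0.02 and 1.18 did not pass (edgeR adjusted p = 0.982 and 0.117). Gene 6281 averaged 17.7 ± 8.14, 24.9 ± 13.3 and 51.3 ± 25.2 CPM, and its log2 differences of 0.27 and 1.08 did not pass (edgeR adjusted p = 0.675 and 0.118). At constant 22 °C gene 40455 averaged 13.9 ± 12.97 CPM and gene 6281 averaged 24.2 ± 19.6 CPM (SD, n = 9), below their means at 11 °C. Both genes thus averaged more CPM at constant 2 °C than the 2.47 and 4.51 CPM seen at 4 °C, but 2 and 4 °C belong to different library sets, which cannot be told apart from the temperature.

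**Figure D5:**
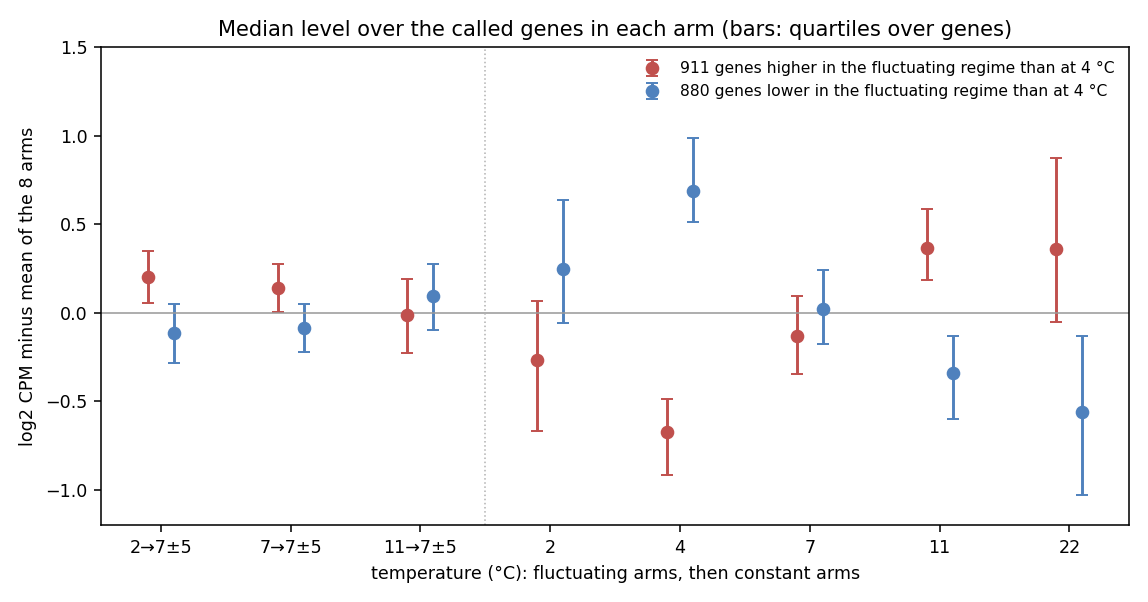
Median level (point) and quartiles over genes (bar) of the 911 genes higher (red) and the 880 genes lower (blue) in the fluctuating regime than at 4 °C, as log2 CPM minus the mean of the 8 arms, in libraries of at least 1000000 counts of days 34 to 69 (22 °C to day 55). The fluctuating arms, 4 °C and 22 °C are of the Second library set and constant 2, 7 and 11 °C of the First; constant 4 °C has the lowest red and the highest blue median.

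Over all called genes the level at 4 °C stood at the end of the range, and 4 °C is one of the groups the genes were chosen on. The median level of the higher genes relative to the mean of 8 arms was 0.20, 0.14 and -0.01 on the log2 scale in the arms after 2, 7 and 11 °C, and -0.27, -0.67, -0.13, 0.37 and 0.36 at constant 2, 4, 7, 11 and 22 °C. For the lower genes it was -0.11, -0.08 and 0.09 in the arms, and 0.25, 0.69, 0.02, -0.34 and -0.56 at the constant temperatures. The values of the fluctuating arms lay between those of constant 7 and 11 °C for the higher genes. For the lower genes the arms after 2 and 7 °C lay between constant 7 and 11 °C, and the arm after 11 °C lay between constant 2 and 7 °C. The genes were chosen on the arms too, but not on constant 7 and 11 °C. That choice by itself moves the arms away from 4 °C relative to those temperatures. The constant 2, 7 and 11 °C libraries are also of another library set than the arms, so these positions carry any difference between the sets.

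Total counts, the shares of the highest genes and the number of genes detected did not differ between the regimes by permutation tests. Total counts averaged 2756362 ± 1366354 in the fluctuating regime and 2251285 ± 1238211 at 4 °C (SD, n = 36 and 12; permutation p = 0.270 within days). The 10 highest genes of a library took 41.3 ± 4.61% and 42.6 ± 4.76% of its counts (permutation p = 0.430), and the highest gene alone 14.9 ± 4.199% and 13.5 ± 5.57% (permutation p = 0.370). At an equal depth of 1000000 counts, fluctuating libraries had 13997 ± 596 genes detected (SD, n = 33) and 4 °C libraries 13674 ± 654 (SD, n = 10; permutation p = 0.446). The adjusted p over these 4 two-sided tests was 0.446 for each.

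The spread between libraries of 1 arm and day gave no difference that passed. The median over genes of the SD of log2 CPM averaged 0.663 ± 0.340 over the 12 arm-days of the fluctuating regime and 0.558 ± 0.276 over the 4 days of 4 °C (SD; two-sided exact permutation test within days, p = 0.617, with 0.00391 the smallest p possible). The mean difference within days was 0.105, 0.0411 in libraries of at least 1000000 counts and 0.209 with a prior count of 0.5 in place of 2. On the axis between like libraries, the fluctuating regime scored 0.108 ± 0.972 and 4 °C -0.357 ± 1.06, a mean difference within days of 0.572 (permutation p = 0.144). Without replicates 1 and 2 of 4 °C at day 55 the 4 °C libraries scored -0.83 ± 0.39 (SD, n = 8) and the difference was 0.996 (permutation p = 0.0137). Those 2 libraries stood out by their high scores on this same axis, so leaving them out raises the difference by construction. That p is therefore no test of whether the regimes differed on the axis.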

How the data were processed

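The authors deposited 1 table of whole-number counts of reads per gene, without normalization, and 0 of its columns lacked a matching library label; libraries of the earlier days enter no comparison here. Per the labels' protocols, total RNA was extracted from buds with a plant column kit, libraries were made with the QuantSeq 3′ kit and reads of 85 bases were sequenced on a NextSeq500. The submitters' processing notes name FastQC, STAR and DESeq2; the genome build and annotation are not given in the sources used here. Groups, days and replicate numbers came from the labels.

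The test was the quasi-likelihood one of edgeR 4.0.16 under R 4.3.3 (filterByExpr, TMM scaling, glmQLFit, glmQLFTest; Benjamini-Hochberg adjusted p under 0.05), with day and regime, or day and arm, as factors. The scripts were tested on simulated data. Permutation tests used 100000 resamples within days, or all arrangements where exact. DESeq2 1.42.0 and other scalings, filters and subsets were alternatives. The axis between like libraries was the first singular vector of deviations of log2 CPM from arm-day means. Its sign was set so that its loading correlated positively with the pooled log2 difference, and signs of scores and correlations are relative to that. Its use as a covariate, like the removal of the pair of 4 °C libraries at day 55, was chosen after seeing the data.

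The libraries compared, the tests and the gene rule were chosen with earlier results of these data known. The rule took called genes averaging at least 10 CPM over the 48 libraries, with all 12 arm-day means on the same side of 4 °C. Of these it kept the 2 largest rises and the 2 largest falls. Planned lists of gene families were not run, because the table's lines carry no gene identifiers. Genes with near-identical copies or overlapping neighbours could not be marked, so counts of any of them are uncertain. No 2 replicates held identical values, and the smallest chi-square per gene between replicates was 1.97. Intervals are not given; floors of 3 counts cover counting error only.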

Additional observations from a re-analysis of the deposited data

Results flagged for a closer look

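Gaps inside groups were looked at in 21 groups, those of the named genes and the axis score at 4 °C, and 4 had a library standing far from the rest. Chance gives about 1 in 20 such groups only for normally distributed values. CPM values that include shallow libraries need not be so, and the rate may not hold here. Gene 40455 had 51.9 CPM in the highest of 9 fluctuating libraries at day 34, with the next at 19.6 CPM. At day 55 its highest fluctuating library had 186 CPM, with the next at 23.3 CPM. That library held 75153 counts in all, and the value is 14 counts. In the same library gene 6281 had 1211 CPM, with the next at 35.8 CPM. Among the 10 deeper libraries of 4 °C, gene 40455 had 13.2 CPM in replicate 1 of day 55, with the next at 2.27 CPM.

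Genes 18197 and 21343 differed between the regimes by an amount that changed across days (edgeR adjusted p = 0.0411 each). Their high values at 4 °C were in replicates 1 and 2 of day 55, and neither was called without those 2 libraries. The part of these libraries in the result was not tested beyond leaving them out.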

How the results depend on the processing

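Of the counts and library measures recomputed, 85 stayed within 1.5 times or the spread, 86 moved and 1 reversed. Depth limits low genes, 3 libraries of 4 °C a day limit the single days, and the cause of a move was not tested. The pooled count of 1791 was 1719 with RLE scaling, 1483 with no filter, 1901 in libraries of at least 1000000 counts, 2234 by DESeq2 and 1974 with arm as a factor. It was 3578 with the share of the 10 highest genes as a covariate, 2729 with the axis score (23.4% of genes), 3529 without replicates 1 and 2 of 4 °C at day 55, 1135, 1153 and 2556 without the arm after 2, 7 or 11 °C, 1292 to 2365 without single libraries of 4 °C, and 623, 883, 3442 and 643 without day 34, 41, 55 or 69. Leaving out replicate numbers gave 150 to 1406. Same-numbered libraries of the regimes did not deviate together on average (36 pairs, mean r = -0.12, range -0.635 to 0.385, 8 pairs over 0.1). These values come from deviations within groups of 3 libraries and cannot settle whether the numbers pair the libraries. With a replicate block the pooled count was 1742, that of regime by day 0, and day 41 gave 0.259% of genes.

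Single days, regime by day and the test across arms are given as the percentage of genes tested that passed: 1.62, 0.495, 1.7 and 0.576% for days 34, 41, 55 and 69 as reported, 0.0162% for regime by day, 0% for its slope and 0.998% across arms. With the top-gene share as a covariate the arms after 2, 7 and 11 °C gave 3854, 2528 and 1573 genes, the test across arms 1.61%, regime by day 0%, its slope 0.00837%, and the 4 days 5.99, 0.0568, 0.178 and 6.03%. With the axis score the arms after 7 and 11 °C gave 2025 and 2370, the test across arms 4.68%, regime by day 0%, days 41, 55 and 69 gave 0.0219, 4.54 and 3.08%, and the constant comparisons of 7 with 2 °C and 11 with 7 °C gave 1112 and 187 genes. DESeq2 gave 1031 for the arm after 11 °C, 3.53% across arms, 2.66% for regime by day, 0.004% for the slope, 7.56, 4.45 and 1.47% at days 34, 55 and 69, and 978 genes for 11 against 7 °C. With no filter the test across arms gave 1.83%, days 34, 55 and 69 gave 0.227, 0.306 and 0.0915%, and 11 against 7 °C gave 906. RLE scaling gave 0% for regime by day and 0.811% at day 41. In libraries of at least 1000000 counts the test across arms gave 1.52%, regime by day 0%, and days 41 and 69 gave 0.0146 and 0.891%. Without replicates 1 and 2 of 4 °C at day 55, the arms gave 3976, 3023 and 1132 genes and the test across arms 1.46%. The axis score then differed by 0.996 between the regimes (permutation p = 0.0137, against 0.144 with them). These libraries stood out by that same score, so the lower p is no test of the difference.

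Leaving out each replicate number in turn gave 239 to 1283, 14 to 1422 and 37 to 387 for the arms after 2, 7 and 11 °C, 0 to 1.92% across arms, 0 to 0.894% for regime by day, 0 to 0% for its slope, and 0 to 0.53, 0 to 0.409, 0 to 5.09 and 0 to 0.0411% for days 34, 41, 55 and 69. For 7 against 2 °C it gave 501 to 2283 and for 11 against 7 °C 1 to 362. The difference between regimes in the share of the highest gene reversed without replicate 3, to -0.518 percentage points, in a range of -0.518 to 2.89. Genes 14529 and 14528 were called under all 31 alternatives, with log2 differences of -2.39 to -1.78 and -2.35 to -1.29. Gene 40455 ran from 2.25 to 3.61 and lost its call in 3 of 31, and gene 6281 ran from 1.26 to 2.96 and lost it in 1 of 30, as given above; DESeq2 gave no adjusted p for gene 6281.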
